A study of Homo sapiens with 5 samples.

Results

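The genes described here are the 10 that make, export, remove and sense sphingosine-1-phosphate (S1P) in NCI-H209 cells, out of 64837 genes counted. They are the kinases SPHK1 and SPHK2, the exporter SPNS2, the lyase SGPL1, the phosphatase SGPP1 and the receptors S1PR1 to S1PR5. Membership was fixed by gene symbol. The theme was chosen by its read counts in the comparison of co-cultured with control cells, in which the rise of SPNS2 was already known, so the differences of these 10 genes between the groups are given as a description, without p-values. NCI-H209 cells are an established line of human small-cell lung cancer (SCLC). The study asked how the vascular niche of the brain alters such cells. The control group was 3 untreated NCI-H209 cultures, and the co-cultured group was 2 NCI-H209 cultures conditioned by human brain microvascular endothelial cells (HBMECs) for 24 h in a trans-well chamber, in which the cells share medium. The labels give no genetic change in either group, all libraries came from the same tumor cell line, and HBMECs themselves were not analysed here. The labels do not say how the replicates were separated, so p-values measure the spread between these libraries, which may be technical.

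S1P is a lysophospholipid made inside the cell when a sphingosine kinase adds a phosphate to sphingosine, which itself is released from ceramide. It is carried out of the cell by transporters, binds G protein-coupled receptors on the same or on neighboring cells, and is destroyed by the lyase or turned back into sphingosine by phosphatases. S1P is best known in vessels, where it tightens the endothelial barrier, and in lymph, where its gradient guides lymphocytes.

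Libraries held 17317045 to 19157348 counts on genes in control and 15457071 and 18918787 in the co-cultured group, so that 3 counts, the upper limit that a count of 0 allows, were 0.157 to 0.173 CPM (read counts scaled to the effective size of the library) in control and 0.159 and 0.194 CPM in the co-cultured group. These limits cover counting error only. Between 92.3% and 93.1% of the counts fell on the strand expected from the directional kit. Of all reads, 8.13% to 8.48% were unmapped in control against 15.9% and 16.8% after co-culture, and the part of this difference in the results was not tested. Between 30.7% and 33.6% of all reads in a library were counted on genes. Replicates of each group differed by more than sampling noise, and control replicate 1 stood apart (chi-square over its degrees of freedom 17.9 and 18.1 against the other control libraries, and 6.34 between those). Of 10 neuroendocrine markers of SCLC, 9 passed the filter on low counts. CHGA, a defining marker, was at 0 counts in 4 libraries and at 1 count in co-cultured replicate 1.

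Of the kinases, SPHK2 carried nearly all of the reads and was at a like level in both groups. SPHK2, which acts largely in the nucleus and at organelles, had 23.1, 16.8 and 16.3 CPM in control and 17.3 and 19.6 CPM after co-culture. The groups overlapped, with control replicate 1 above all other libraries, and the log2 fold change, positive where co-culture was higher, was -0.03 (standard error 0.16). Its exons share 246 bases with RPL18 and 661 bases with DBP on the opposite strand, where between 52 and 104 reads per library were counted against 296 to 435 on its own strand. SPHK1, the kinase of the cytosol and plasma membrane, had 6, 2 and 1 counts in control and 6 and 0 after co-culture. These counts were below the filter and were outnumbered in all 5 libraries by reads on the opposite strand, of which there were 10, 11, 13, 11 and 5. No difference in SPHK1 was detectable at this depth.

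SPNS2, the transporter that moves S1P across the plasma membrane, showed the widest difference of the 6 genes of the set that passed the filter. Its counts were 71, 52 and 74 in control against 271 and 167 after co-culture. On the CPM scale, control was at 3.78, 2.88 and 3.79, and co-culture at 14.8 and 11.03. Both co-cultured libraries were far above the 3 control libraries, which lay close together. The mean was 3.48 ± 0.524 CPM (SD, n = 3) in control against 12.9 ± 2.67 CPM (SD, n = 2) after co-culture. The log2 fold change was 1.89 (standard error 0.20), which is 3.71-fold. The gene lies on chromosome 17 from 4498838 to 4539035 on the plus strand (GRCh38). Its last exon shares 139 bases with MYBBP1A on the opposite strand, and an antisense transcript without shared exon bases overlaps its start.

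The strand of the reads mattered for SPNS2. Reads on its opposite strand numbered 64, 52 and 53 in control and 35 and 43 after co-culture. They made up 41.7% to 50.0% of the stranded reads of the locus in control, and 11.4% and 20.5% after co-culture. MYBBP1A, which encodes a nucleolar protein, itself had 894, 786 and 815 counts in control and 517 and 476 after co-culture. The higher counts of SPNS2 were thus on its coding strand. With reads counted without regard to strand, the log2 fold change of SPNS2 was 1.54.

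**Figure D1:**
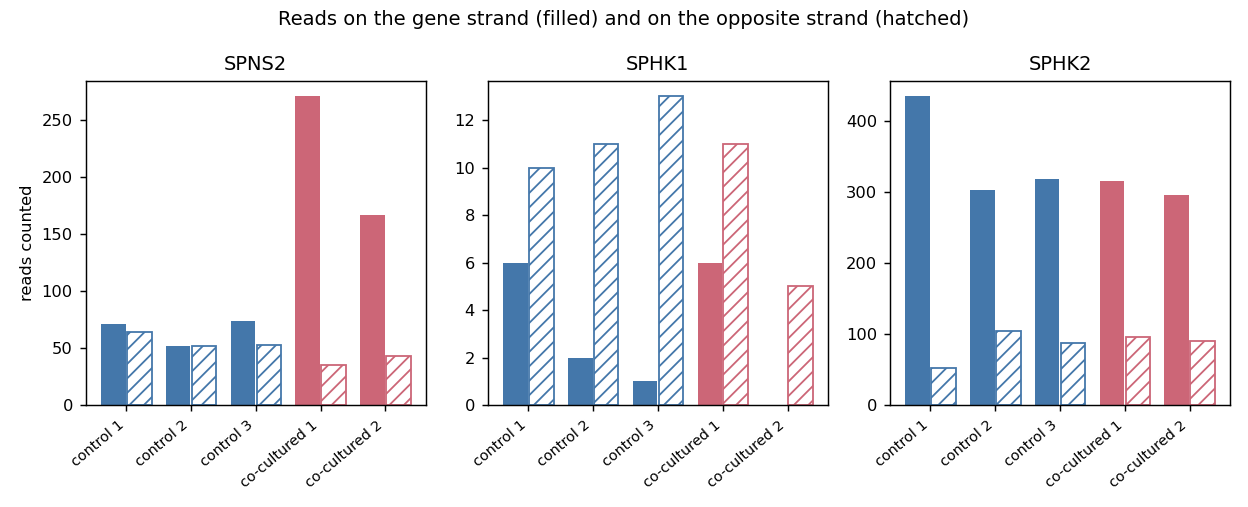
Reads counted on the gene's own strand (filled bars) and on the opposite strand (hatched bars) for SPNS2, SPHK1 and SPHK2, with libraries on the x axis, reads on the y axis, control in blue and co-cultured in red. For SPNS2 the filled bars rise from 52 to 74 reads in control to 167 and 271 in the co-cultured libraries while the hatched bars do not, and for SPHK1 the hatched bars exceed the filled bars in every library.

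Of the enzymes that remove S1P, the lyase was abundant in both groups and the phosphatase was not detected. SGPL1, which cleaves S1P irreversibly, had 282.8, 222 and 229.6 CPM in control and 240.3 and 256 CPM after co-culture. The groups overlapped, and the log2 fold change was 0.02 (standard error 0.11). SGPP1, which removes the phosphate of S1P at the endoplasmic reticulum, was listed at 0 counts in all 5 libraries, on either strand and without regard to strand. Of 19969 protein-coding genes, 2097 were listed in this way. No annotated gene overlaps SGPP1, which lies on chromosome 14 from 63684214 to 63728039. Its nearest protein-coding neighbors were read in every library, WDR89 with 366 to 720 counts and SYNE2 with 15050 to 25915 counts.

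The 3 receptors that passed the filter, S1PR2, S1PR3 and S1PR5, did not overlap between the groups and were higher after co-culture, as were 29.4% of all genes tested, and S1PR2 outweighed the others in both groups. S1PR2, which couples to several classes of G protein, had 244, 293 and 253 counts in control and 552 and 383 after co-culture. Scaled to CPM, these were 12.97, 16.2 and 12.95 against 30.2 and 25.3, so the groups were well apart. The gene averaged 14.0 ± 1.87 CPM (SD, n = 3) in control against 27.7 ± 3.44 CPM (SD, n = 2) after co-culture, with a log2 difference of 0.98 (standard error 0.14). S1PR2 lies on chromosome 19 from 10221433 to 10231331 on the minus strand and shares 83 exon bases with DNMT1 on the same strand. Reads in those bases count for neither gene, and at most 1 read per library was on the opposite strand of S1PR2.

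S1PR3, a receptor with similar coupling, was scarce, with 12, 8 and 17 counts in control and 23 and 35 after co-culture. The groups did not overlap, but co-cultured replicate 2 was much the higher of the pair. Its log2 fold change was 1.42 (standard error 0.41), and 0.94 without co-cultured replicate 2. S1PR5, known from natural killer cells and oligodendrocytes, had 8, 17 and 11 counts in control and 24 and 16 after co-culture. After scaling, the co-cultured libraries at 1.31 and 1.06 CPM were just above control replicate 2 at 0.940 CPM. The log2 fold change of S1PR5 was 0.89 (standard error 0.41), and it was not among the genes called. S1PR1, the main S1P receptor of endothelial cells and lymphocytes, had 1 count in co-cultured replicate 1 and 0 in the other 4 libraries. S1PR4, a receptor of lymphoid cells, had 0 counts in all 5 libraries on its own strand.

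**Figure D2:**
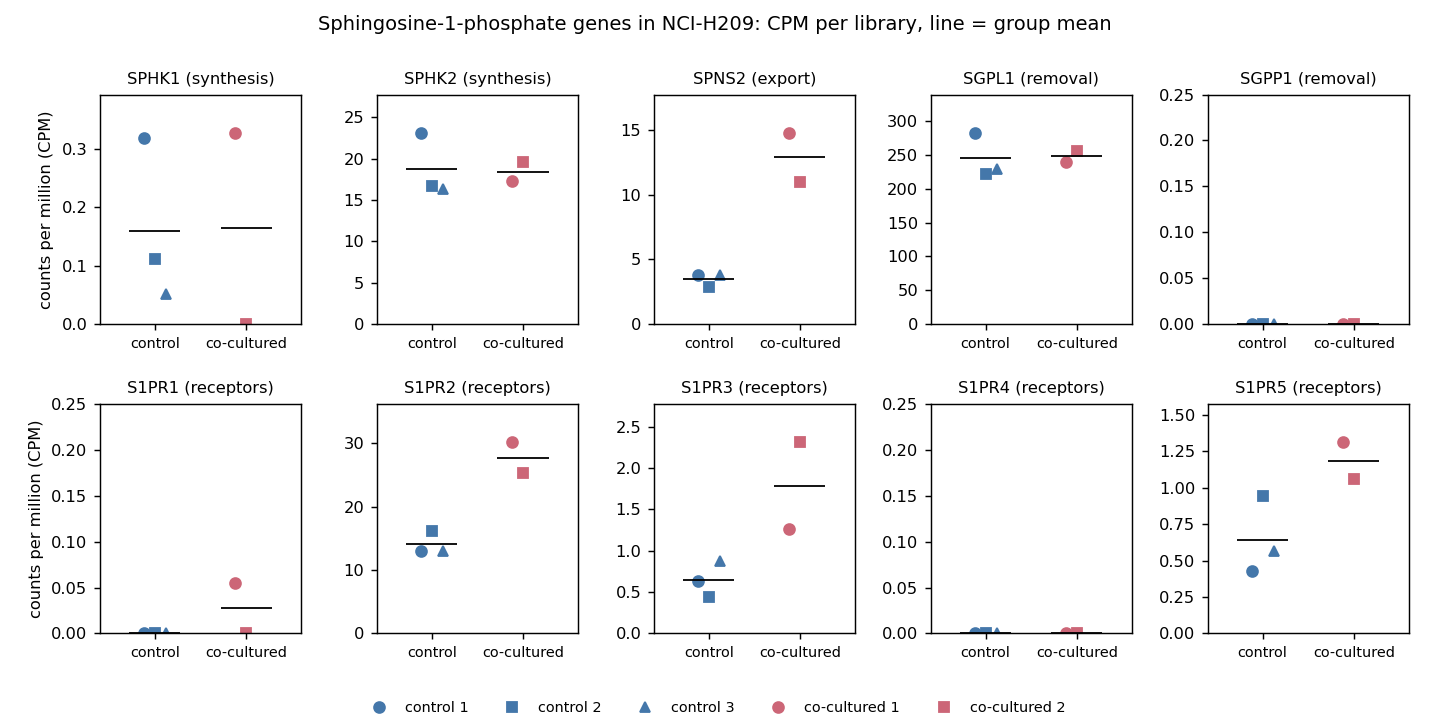
CPM of each of the 10 genes in each library on linear axes that differ between panels, with control in blue, co-cultured in red and a black line at the mean of each group. SPNS2, S1PR2, S1PR3 and S1PR5 have both co-cultured points above all control points, SPHK2 and SGPL1 overlap, and SPHK1, SGPP1, S1PR1 and S1PR4 are at or near 0.

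S1PR2 took 92.4%, 92.1% and 90.0% of the counts on the 5 receptors in the control libraries. In co-cultured replicate 1 its share was 92.0% (Wilson 95% interval 89.6% to 93.9%) and in co-cultured replicate 2 it was 88.2% (Wilson 95% interval 84.9% to 90.9%). Scaled by exon length, the share was 92.4% to 94.7% in control and 93.6% and 92.7% after co-culture. These intervals cover counting error only, and a share so near its upper end can move little. The summed length-scaled level of the receptors was 3.76 to 4.81 CPM per kilobase in control and 8.85 and 7.49 after co-culture, with no overlap.

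Upstream sequence is shown for S1PR2, as the most abundant of the genes that were higher in co-culture and are in the sequence table, and for SGPL1, the most abundant gene of the set and one whose groups overlapped. Of the 10 genes, 8 have an entry in the RefSeq promoter table (GRCh38.p14), and SPNS2 and SGPP1 do not. The 250 bases before the start site of S1PR2 are chr19:10231332-10231581 on the minus strand, and those of SGPL1 are chr10:70815698-70815947 on the plus strand. Both are written 5′ to 3′ on the strand of the gene. Capitals mark matches, on either strand, to the core of hypoxia response elements (ACGTG or GCGTG), to the cAMP response element (TGACGTCA) and to the AP-1 element (TGANTCA). The first and second of these can overlap.
S1PR2: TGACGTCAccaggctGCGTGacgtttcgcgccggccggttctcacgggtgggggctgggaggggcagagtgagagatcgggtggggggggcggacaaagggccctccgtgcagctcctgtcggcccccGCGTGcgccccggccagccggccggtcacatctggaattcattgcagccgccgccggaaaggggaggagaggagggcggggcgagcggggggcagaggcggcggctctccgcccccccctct
SGPL1: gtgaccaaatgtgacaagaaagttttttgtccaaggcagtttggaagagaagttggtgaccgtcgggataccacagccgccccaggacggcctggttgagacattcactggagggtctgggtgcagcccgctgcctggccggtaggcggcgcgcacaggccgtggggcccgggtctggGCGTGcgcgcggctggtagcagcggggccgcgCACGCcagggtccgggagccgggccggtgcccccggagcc
Both sequences hold 2 matches to the hypoxia core, which 43.2% of 35116 promoters of this length hold at least once. The S1PR2 sequence also holds 1 cAMP response element, which 1.65% of the promoters hold, at its far end from the start site. No other of the 13 promoters of these genes holds that element. AP-1 matches were found in 1 of the 3 promoters of SPHK1 and in none of the other genes, against 6.57% of all promoters. The motifs were chosen after the data had been seen, and a match is only a match of letters. The G and C content was 74% for S1PR2 and 68.8% for SGPL1, with a median of 58% over all promoters.

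Levels were compared between genes on the scale of CPM per kilobase of exon. In control SGPL1 was first at 32.7 ± 4.41 (SD, n = 3), 8.49 times the next gene. S1PR2 at 3.85 ± 0.513 (SD, n = 3) and SPHK2 at 3.12 ± 0.634 (SD, n = 3) overlapped in control and did not differ beyond their spread. SPNS2 followed at 0.846 ± 0.127 (SD, n = 3), then S1PR5 at 0.229 ± 0.0949 (SD, n = 3). S1PR3 and SPHK1, at 0.0479 and 0.0363, overlapped at the bottom of the range, and SGPP1, S1PR1 and S1PR4 were at 0. After co-culture SPNS2 reached 3.60 and 2.68, a level that overlapped that of SPHK2 at 2.87 and 3.25, and S1PR2, at 8.28 and 6.94, no longer overlapped SPHK2. The ratio of SPNS2 to SPHK2 was 0.239, 0.251 and 0.339 in control and 1.25 and 0.825 after co-culture. In contrast, the ratio of SGPL1 to SPHK2 was 9.82 to 11.3 in control and 11.2 and 10.5 after co-culture.

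**Figure D3:**
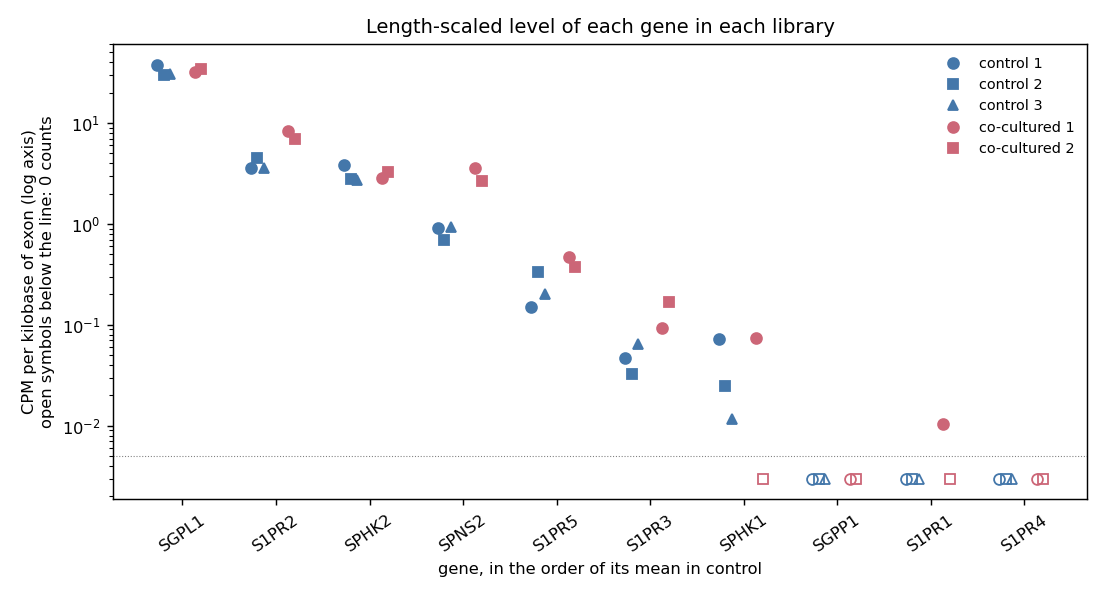
Level of each gene in CPM per kilobase of exon on a log axis, with the genes ordered by their mean in control (blue) and co-cultured values in red, and open symbols under the dotted line for libraries with 0 counts. SPNS2 moves from below 1 in control to 2.68 and 3.60, next to SPHK2, while SGPL1 stays highest in every library.

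Of the 10 genes, 6 passed the filter on low counts. Over all 20360 genes tested, 33.4% were called at an adjusted p under 0.05 (18.4% as higher and 15.0% as lower after co-culture), and 3 of the 6 were among them, all higher, namely SPNS2, S1PR2 and S1PR3. At the criterion of the study's methods, taken here as a log2 difference over 1 in size and an unadjusted p under 0.05, 5.44% of all genes were higher and 5.01% lower, and 2 of the 6, SPNS2 and S1PR3, were higher. The groups did not overlap for 4 of the 6, again all higher, where 29.4% of all genes were higher and 30.0% lower without overlap. Since the set was drawn up with this comparison known, nothing is read from these counts. The median log2 fold change was 0.94 over the 6 genes and -0.03 over all genes tested. Without control replicate 2 the number of these genes called was 2, because S1PR3 was lost, with 14.5% of all genes higher and 10.8% lower. It was also 2 with a filter of at least 10 counts in every library, which S1PR3 did not pass. With that filter 19.9% of all genes were higher and 17.3% lower. S1PR3 also lost its call without co-cultured replicate 2, where its log2 fold change fell from 1.42 to 0.94. In bulk RNA a change in the number of cells that express a gene and a change in RNA per cell cannot be told apart.

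The wider sphingolipid pathway was described with 79 genes in 5 groups, which were listed by role. The lists were drawn up with earlier results of these data known, so the shares called are given as a description. Of these, 73 passed the filter. By edgeR's quasi-likelihood test, adjusted over all genes, 25 (34.2%, against 18.4% of all genes) rose with co-culture, 6 (8.22%, against 15.0%) fell, and 42 did not pass at 0.05. Their median log2 fold change was 0.17. The 25 include SPNS3 and the 6 include SPNS1, which passed the filter only through the group where they were higher. Calls of these 2 genes are not support for a difference. The counts depended on the libraries. Without co-cultured replicate 1 they were 13 higher and 0 lower, with 8.21% and 4.62% of all genes, and without co-cultured replicate 2 they were 11 higher and 0 lower, with 8.94% and 5.21% of all genes. Without control replicate 2 there were 21 higher and 3 lower, with 14.5% and 10.8% of all genes. Without control replicate 1 there were 35 higher and 9 lower, with 26.5% and 23.0% of all genes.

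Among 12 genes of S1P clearance, carriage and other transport, 11 were tested, with 3 (27.3%, against 18.4% of all genes) higher and 1 (9.09%, against 15.0%) lower. SPNS3 is 1 of the 3, and SPNS1 is the 1 that was lower. Both passed the filter only through the group where they were higher, so nothing is read from these shares. SGPP2, the second S1P phosphatase, had 79.5, 77.4 and 80.5 CPM in control and 182 and 184 CPM after co-culture. The replicates of each group lay close together and the groups far apart, with a log2 difference of 1.21 (standard error 0.07, edgeR adjusted p = 2.19e-05). SGPP2 was thus present where SGPP1 was at 0. PLPP3, a membrane phosphatase that acts on lysophospholipids outside the cell, averaged 7.02 ± 0.748 CPM (SD, n = 3) in control against 12.5 ± 2.06 CPM (SD, n = 2) after co-culture, a log2 difference of 0.83 (edgeR adjusted p = 0.00446). Without co-cultured replicate 2 the adjusted p of PLPP3 was 0.0690.

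The log2 fold changes of the paralogs of SPNS2 had different signs. Both SPNS3 and SPNS1 passed the filter on low counts only through the group where they were higher. Their p-values and calls are thus a description and not support for a difference. SPNS3 lies 10.6 kb before SPNS2 on the same strand of chromosome 17, from 4433688 to 4488208. It had 16, 5 and 8 counts in control and 24 and 23 after co-culture, a log2 difference of 1.45 (standard error 0.46, edgeR adjusted p = 0.0368), and the call was lost with DESeq2 and when 1 of 4 libraries was left out. SPNS1, a lysosomal transporter of lysophospholipids on chromosome 16, had 18, 21 and 35 counts in control and 4 and 6 after co-culture. Its log2 fold change was -2.09 (standard error 0.50, adjusted p = 0.0113), and the adjusted p was 0.127 without co-cultured replicate 1 and 0.0503 without co-cultured replicate 2. Of the exon bases of SPNS1, 55.4% are shared with another gene on the same strand, so its count is uncertain. Of the other carriers of S1P, MFSD2B had 9 to 19 counts per library with a log2 fold change of -0.58 (adjusted p = 0.297), that of ABCC1 was 0.38 (adjusted p = 0.163), and APOM, the S1P carrier of lipoproteins, was at 0 counts in every library.

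Ceramide breakdown supplies the sphingosine from which S1P is made. Among 19 genes of ceramide breakdown and use, 18 were tested, with 5 (27.8%, against 18.4% of all genes) higher and 3 (16.7%, against 15.0%) lower. ACER3, an alkaline ceramidase that releases sphingosine, averaged 55.7 ± 2.58 CPM (SD, n = 3) in control against 103 ± 0.119 CPM (SD, n = 2) after co-culture, a log2 difference of 0.88 (standard error 0.08, edgeR adjusted p = 8.98e-05). ACER2, the ceramidase of the Golgi, fell by 0.51 on the log2 scale (edgeR adjusted p = 0.0296), and its call was lost in 6 of the alternatives, with adjusted p-values up to 0.229. SAMD8 and SGMS2, of the family of sphingomyelin synthases, rose by 0.61 and 0.86 on the log2 scale. SMPD2 and SMPD3, neutral sphingomyelinases that release ceramide, fell by 0.63 and by 0.48 on the log2 scale, and both calls were lost when either co-cultured library was left out. The acid ceramidase ASAH1 had 27.7 ± 2.56 CPM (SD, n = 3) in control against 30.6 ± 0.317 CPM (SD, n = 2) after co-culture (edgeR adjusted p = 0.329).

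In ceramide synthesis, 16 of 17 genes were tested, with 6 (37.5%, against 18.4% of all genes) higher and 1 (6.25%, against 15.0%) lower. CERS6, a ceramide synthase, averaged 169 ± 16.9 CPM (SD, n = 3) in control against 250 ± 0.0346 CPM (SD, n = 2) after co-culture, a log2 difference of 0.57 (edgeR adjusted p = 0.00190). SPTSSA, a small subunit of serine palmitoyltransferase, and DEGS1, the desaturase that completes ceramide, rose by 0.59 and 0.61 on the log2 scale, and the adjusted p of DEGS1 was 0.0560 without co-cultured replicate 1. The remaining 3 that rose, named after their values had been seen, were ORMDL1, ORMDL2 and ORMDL3, which restrain serine palmitoyltransferase, with log2 fold changes of 0.36, 0.43 and 0.40. SPTLC2, a catalytic subunit of the same enzyme, fell by 0.36 on the log2 scale (adjusted p = 0.00655), and lost its call when either co-cultured library was left out (adjusted p = 0.103 and 0.0625).

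Downstream of the receptors, all 21 coupling genes were tested, with 11 (52.4%, against 18.4% of all genes) higher and 1 (4.76%, against 15.0%) lower. DESeq2 called 10 of the 21 in either direction, with 17.0% of all genes higher and 12.4% lower. The part of read depth in this share was not tested. ROCK2, a kinase of the actin cytoskeleton, averaged 146 ± 11.9 CPM (SD, n = 3) in control against 237 ± 13.7 CPM (SD, n = 2) after co-culture, a log2 difference of 0.70 (edgeR adjusted p = 0.000560). GNAI3, an inhibitory G protein subunit, and RAC1, a small GTPase, rose by 0.51 and 0.54 on the log2 scale. PLCB2, a phospholipase C, had 43, 45 and 41 counts in control and 22 and 16 after co-culture. Its log2 fold change was -1.01 (adjusted p = 0.0200), and the call was lost with DESeq2 and without control replicate 2 or either co-cultured library. For RHOA, a small GTPase, the log2 fold change was 0.02 (edgeR adjusted p = 0.873). The group of related lysophospholipid receptors also holds ENPP2, which is not a receptor. In it 7 of 10 genes were tested and 0 passed, against 18.4% of all genes higher and 15.0% lower. DESeq2 also called 0, and 0 had an unadjusted p under 0.05 in edgeR.

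**Figure D4:**
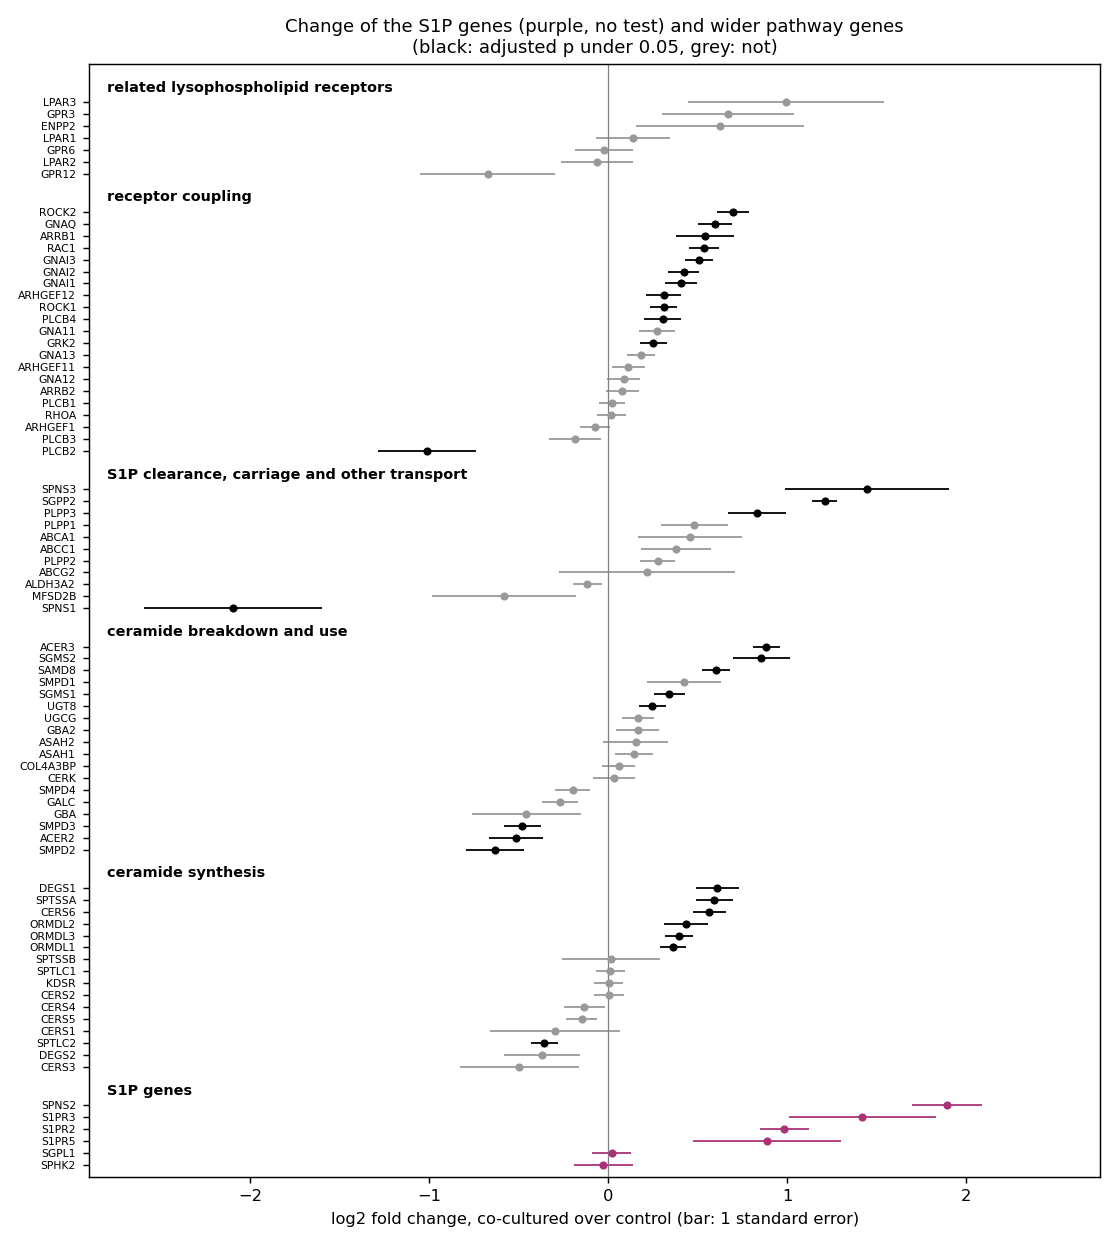
Log2 fold change (co-cultured over control) on the x axis, with a bar of 1 standard error, for the 6 S1P genes (purple) and 73 wider pathway genes that passed the filter, sorted within each group, with genes at an adjusted p under 0.05 in black and others in grey. SPNS2 at 1.89 lies furthest to the right and SPNS1 at -2.09 furthest to the left, and most coupling genes lie between -0.2 and 0.7.

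The protein-coding genes whose pattern over the 5 libraries was most like that of SPNS2 were found by the root-mean-square difference of centred log2 CPM. They were CITED2, TRIM49C, STC2, PPIC and B3GNT3, with differences of 0.110 to 0.132. CITED2, a transcriptional regulator induced in hypoxia, had 118, 97 and 151 counts in control and 550 and 323 after co-culture. STC2, a secreted glycoprotein, averaged 161 ± 26.2 CPM (SD, n = 3) in control against 550 ± 104 CPM (SD, n = 2) after co-culture. As in SPNS2, co-cultured replicate 1 was the higher of the pair in both. They were picked for this likeness to a gene that differed between the groups, so no p-value is given for them.

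Markers of endothelial cells were read in the same libraries, since endothelial cells carry S1P receptors and exporters of their own. Of 20 markers, 7 never exceeded 3 counts and 10 passed the filter. Of these 10, 2 (20%, against 18.4% of all genes) rose by edgeR's test and 0 (against 15.0%) fell. The 2 that rose were ICAM2 (edgeR adjusted p = 0.0367) and ESAM (edgeR adjusted p = 0.00666). ESAM passed the filter only through the co-cultured group, where it was higher, so its call is not support for a difference. The summed level of the 20 markers was 18.6 to 30.2 CPM in control and 24.3 and 24.9 CPM after co-culture, within the range of control. The most read were VWF with 75 to 159 counts in control and 87 and 90 after co-culture, ICAM2, and ERG with 55 to 70 in control and 52 and 41 after co-culture. KDR had 37, 27 and 2 counts in control and 12 and 4 after co-culture, and TEK and NOS3 were likewise highest in control replicates 1 and 2. ECSCR and PLVAP were at 0 in every library, and EMCN, ROBO4, TIE1 and SOX17 had at most 1 count. CDH5 had 4 to 11 counts in control and 7 and 11 after co-culture, and PECAM1 had 14, 10 and 3 against 18 and 11. CLDN5 had 7, 4 and 4 counts against 6 and 1. SOX18 and CD34 were below the filter and did not overlap in CPM between the groups. SOX18, with 4, 5 and 10 counts against 11 and 8, was higher after co-culture. CD34, with 10, 11 and 9 counts against 7 and 3, was lower. ESAM had 3 to 6 counts in control and 21 and 14 after co-culture, in the direction of SPNS2, and the part of endothelial RNA in these results was not tested.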

How the data were processed

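For each NCI-H209 library the authors deposited raw read counts per gene, with 3 count columns (unstranded and both strands) as written by STAR. The submitters' processing notes name CASAVA 1.8, STAR 2.6.1b, DESeq2 and GRCh38. RNA was depleted of ribosomal RNA and libraries were made with a directional kit. The counts on the strand of such a kit (the fourth column) were used. The authors' table of their own comparison (means, fold changes and p-values) was used only to match symbols to identifiers. It held 7 of the 10 genes, and SGPP1, S1PR1 and S1PR4 were matched by symbol in GENCODE release 29.

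After the filterByExpr filter of edgeR 4.0.16 (R 4.3.3), counts were scaled by TMM and compared between co-cultured and control cells with the quasi-likelihood test, with p-values adjusted by Benjamini-Hochberg over 20360 genes. The standard error of a log2 fold change is its size over the root of F. CPM uses TMM-scaled library sizes, and per kilobase means the union of exons. The biological coefficient of variation was 10.2%. The steps were tested on simulated data. Members and lists were chosen with earlier results of these data known. Named genes are the 10 members, in each pathway group up to 3 genes higher and 3 lower with the smallest p among those called without overlap, and the 5 genes nearest to SPNS2. Any other gene was named after its values were seen. Alternatives were 2 other normalizations, DESeq2 1.42.0, 2 other filters, a replicate block, unstranded counts and leaving out each library. Plots used matplotlib 3.10.9.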

Additional observations from a re-analysis of the deposited data

How the results depend on the processing

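Among the 29 named genes, recomputed under each alternative whose filter they passed, no call turned to the opposite direction. S1PR3, S1PR5, SPNS1, SPNS3 and PPIC did not pass the filter of at least 10 counts in every library. Other genes named in the text, such as ORMDL1 and ESAM, were not recomputed one by one. The direction was not fixed for SGPL1 and SPHK2, which were never called: the log2 fold change of SGPL1 was -0.0557 with upper-quartile normalization, -0.0148 with the replicate block and -0.0411 to 0.139 over the fits without 1 library, and that of SPHK2 was -0.114 to 0.154 over the same fits. That of SPNS2 ran from 1.54 (unstranded counts) to 2.09, that of S1PR2 from 0.86 to 1.11, and both were called throughout. Unstranded counts moved the mean control level of SPNS2 to 4.45 CPM. Wider pathway genes higher numbered 15 with the replicate block and 11 to 35 over the fits without 1 library, and genes lower numbered 0 to 9. With the block, 3 of the 10 genes were called, and 13.6% of all genes were higher and 10.1% lower. Replicates with the same number did not deviate together (correlation -0.114 and -0.067 for numbers 1 and 2), so the numbers do not pair the libraries; SPTLC2, ACER2 and SPNS3 had adjusted p-values of 0.0694, 0.0585 and 0.0715 with the block (edgeR). Of 343 recomputed values of 29 named genes, 305 kept direction and call, 31 lost the call, 0 gained one and 7, of SGPL1 and SPHK2, changed sign uncalled; most of these genes were named for a small p or for likeness to SPNS2, which favors stability. Upper-quartile normalization moved the median of all genes from -0.03 to -0.11, and the share of calls that were higher from 55.1% to 43.9%. The pathway counts were then 21 higher and 8 lower, with 15.1% and 19.3% of all genes. SPHK1, S1PR3, S1PR5 and SPNS3 rest on at most 35 counts per library.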
